A study of Mus musculus with 17 samples.

Results

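Planar cell polarity genes around Vangl2 were followed through erythroid blasts of Spi1 transgenic mice. The 10 members were Vangl1, Vangl2, Celsr1, Celsr2, Celsr3, Prickle1, Prickle2, Prickle3, Daam1 and Ror2, taken by their gene name from the raw count tables of both mouse models, out of 28600 genes with a row in either table. Each table held a row for 8 of them. Prickle2 and Ror2 had no row in either and were listed only in a second table of model 1. The members were selected on their gene names, in a set drawn up around Vangl2 when the levels of Vangl2 and the leukaemic changes of Vangl2, Celsr2 and Daam1 in model 1 were already known. All comparisons with the leukaemic cells of model 1 are therefore given as descriptions.

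Mice are called by the last part of their sample titles. Each of the 17 libraries came from the erythroid blasts of 1 mouse cultured with erythropoietin (EPO). Every mouse carried a Spi1 transgene, made to keep the transcription factor SPI1 high in erythroid progenitors. Model 1 (mixed DBA2JxFVB/N background) comprised 4 TgSpi1FA+/+ preleukaemic mice with intact Fanca (preleukemic_138, preleukemic_445, preleukemic_451 and preleukemic_479), 3 TgSpi1FA-/- preleukaemic mice lacking the DNA repair gene Fanca (preleukemic_40, preleukemic_77 and preleukemic_224) and 3 TgSpi1FA-/- leukaemic mice (leukemic_26, leukemic_28 and leukemic_39). Model 2 (DBA2J background) comprised 4 preleukaemic mice (preleukemic_633, preleukemic_663, preleukemic_812 and preleukemic_837) and 3 leukaemic mice (leukemic_601, leukemic_606 and leukemic_921), all TgSpi1FA+/+, in which leukaemia arose after blood transfusions. Model 1 has no TgSpi1FA+/+ leukaemic group, the Fanca deletion and the transgene came from different strains, and the strain and the library protocol (400 ng of RNA and 8 min of fragmentation in model 1, 300 ng and 2 min in model 2) change together with the model and cannot be told apart from it. The ages of the mice were not given in the sources used here.

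Planar cell polarity is the alignment of cells within the plane of a tissue. VANGL proteins on one side of a cell and Frizzled receptors on the other are held in place across cell borders by the large cadherins CELSR1 to CELSR3, PRICKLE proteins bind VANGL from inside the cell, and DAAM1 carries the signal from Dishevelled to the actin skeleton. The pathway is best known from neural tube closure, hair follicles and the inner ear, and ROR2, a receptor for WNT5A, signals through VANGL2.

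Total counts ranged from 29964576 to 38217654 per library in model 1 and from 37726753 to 40514205 in model 2. Levels are CPM, read counts scaled to a common library size after correction by the trimmed mean of M-values (TMM). Fanca was at 28.2 to 83.5 CPM in the TgSpi1FA+/+ and at 0.615 to 2.30 CPM in the TgSpi1FA-/- libraries of model 1, in the direction of their labels. Spi1 was at 220 and 630 CPM in leukemic_28 and leukemic_26 but at 3.88 CPM in leukemic_39. All 3 lay below the TgSpi1FA-/- preleukaemic libraries (712 ± 59.8 CPM, SD, n = 3), with a log2 fold change of -1.32 (SE 1.10). The TgSpi1FA+/+ preleukaemic libraries of model 1 (692 ± 257 CPM, SD, n = 4) overlapped with the leukaemic ones. Erythroid markers (12 of 12 with a row) summed to 2503 to 4230 CPM in the leukaemic and to 3895 to 5166 CPM in the preleukaemic TgSpi1FA-/- libraries. Of the 12, 9 had a negative log2 fold change between these stages. At an edgeR adjusted p below 0.05 and a change of 1.5-fold or more, 3 were lower (25%, beside 6.49% of all genes tested) and 0 higher. For mice preleukemic_40, preleukemic_77 and preleukemic_224 the sample titles say preleukaemic, which is used here, whereas other parts of the records say leukaemic. The libraries labelled preleukemic_445 and preleukemic_479 stood apart, since a chi-square test of their counts gave 8.53 for each degree of freedom, against 114 to 372 for the other 11 pairs of mice within a group of model 1. The library labelled preleukemic_445 was also closer to the second-table library of preleukemic_479 than to that of preleukemic_445 (correlation across genes of deviations from the mean, 0.609 against 0.469). The main values of first-table comparisons with their group are therefore given with and without both. The comparison of TgSpi1FA-/- stages also takes its estimate of spread from these libraries. It was refitted without them only by leaving out their whole group. The test between models was not refitted without both.

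The starts of Vangl2 and Celsr2, the members with the widest contrast between groups, and of Daam1, the member with the highest level, show how differently CpG-rich these genes are. RefSeq promoter windows (GRCm38.p6, 250 bases before to 50 bases after the start site) were found for 8 of the 10 members. Each sequence below is written 5′ to 3′ along the gene, with every CpG in capitals. Vangl2 is at chr1:172027246-172027545 on the minus strand, Celsr2 is at chr3:108415530-108415829 on the minus strand and Daam1 is at chr12:71830818-71831117 on the plus strand.
Vangl2: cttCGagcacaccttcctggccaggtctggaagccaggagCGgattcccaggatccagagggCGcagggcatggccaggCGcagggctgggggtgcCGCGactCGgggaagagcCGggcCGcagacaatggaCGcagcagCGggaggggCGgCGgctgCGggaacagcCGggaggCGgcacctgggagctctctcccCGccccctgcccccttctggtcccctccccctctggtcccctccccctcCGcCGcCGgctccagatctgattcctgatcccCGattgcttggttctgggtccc
Celsr2: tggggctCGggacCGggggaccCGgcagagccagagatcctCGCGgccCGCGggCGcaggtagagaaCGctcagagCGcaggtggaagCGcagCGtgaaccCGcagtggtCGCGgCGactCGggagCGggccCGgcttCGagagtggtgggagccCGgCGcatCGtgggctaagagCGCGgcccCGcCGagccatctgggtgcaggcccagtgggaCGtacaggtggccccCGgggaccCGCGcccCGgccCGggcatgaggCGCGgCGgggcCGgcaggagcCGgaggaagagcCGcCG
Daam1: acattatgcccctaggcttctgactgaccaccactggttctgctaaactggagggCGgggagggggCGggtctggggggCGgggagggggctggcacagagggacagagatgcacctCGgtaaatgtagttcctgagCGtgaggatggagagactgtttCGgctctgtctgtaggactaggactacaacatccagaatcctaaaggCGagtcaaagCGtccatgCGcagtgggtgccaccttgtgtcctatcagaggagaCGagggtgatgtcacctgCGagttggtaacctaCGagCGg
Celsr2 held 40 CpGs and a GC content of 76.33%, Vangl2 held 21 and 71.33%, and this Daam1 window held 13 and 58%. A second Daam1 window (chr12:71889293-71889592) held 5 and 52.67%. The medians were 7 CpGs and 52.67% over all 32851 windows of this length. The RefSeq start of Vangl2 used here lay 1149 bases inside the outer end of the GENCODE M21 gene, so an upstream start is not covered by it. The 8 members found had 13 windows, several of them for Prickle2. On either strand, the GATA motif AGATAA was in 0 of 13 windows of the members and in 11.18% of all windows. The ETS motif GAGGAAG, the kind of site that SPI1 binds, was in 2 of the 13 (Celsr2 and the second Daam1 window) and in 13.63% of all. The Celsr2 copy is visible near the right end of the sequence above. The E-box CANNTG was in 10 of 13 against 72.31% of all, the CACCC box CCNCNCCC in 9 of 13 against 49.47%, the TCF/LEF motif CTTTGAT in 1 of 13 against 3.729% and the TATA box TATAAA in 0 of 13 against 13.62%. Matches are letters in a window and not sites of binding.

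Vangl2 was seen in each leukaemic library of model 1 and in none of the preleukaemic ones. The gene (ENSMUSG00000026556, GRCm38 chr1:172000960-172028444, minus strand) encodes a four-pass membrane protein at the core of the pathway. Its counts were 168, 549 and 998 in leukemic_26, leukemic_28 and leukemic_39, or 4.60, 14.0 and 25.3 CPM (14.7 ± 10.4, SD, n = 3). All 7 preleukaemic libraries, of both genotypes, had 0 counts, which allows up to 3 counts each. The groups did not overlap. Against a floor of 3 counts in each library, the leukaemic mean was at least 155-fold higher than in TgSpi1FA-/- preleukaemic cells, and 98.7-fold without leukemic_39 or 208-fold without leukemic_26. In bulk samples, fewer cells that express a gene and less RNA per cell cannot be told apart.

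**Figure D1:**
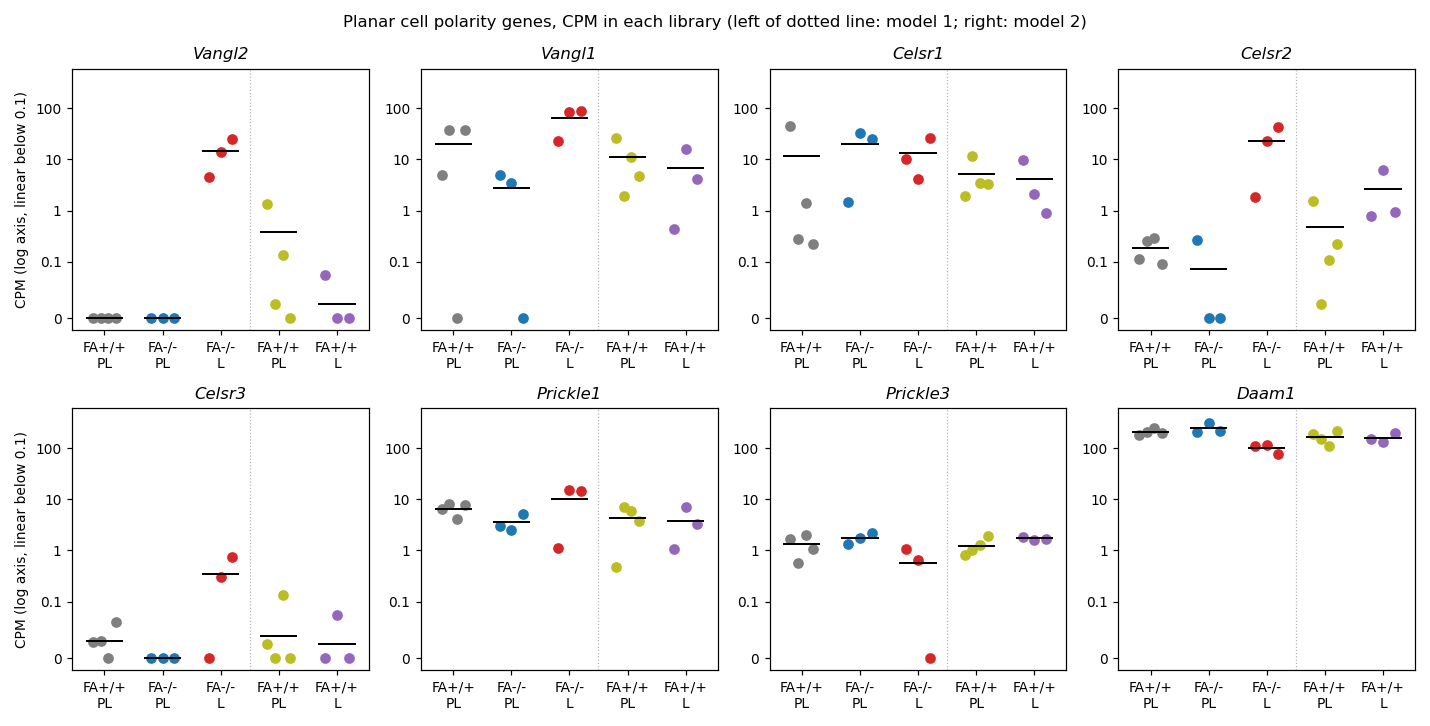
Each panel plots 1 gene, with the CPM of each library as a point (log axis, linear below 0.1 CPM) and the group mean as a black line, for preleukaemic (PL) and leukaemic (L) mice. Vangl2 was at 0 CPM in all 7 preleukaemic libraries of model 1 and between 4.60 and 25.3 CPM in the 3 leukaemic ones, whereas Daam1 was lower in the leukaemic libraries of model 1 (77.5 to 117 CPM) than in all preleukaemic ones of that model.

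In model 2, Vangl2 was near 0 at either stage. Mice leukemic_601, leukemic_606 and leukemic_921 had 3, 0 and 0 counts. Mice preleukemic_633, preleukemic_663, preleukemic_812 and preleukemic_837 had 53, 1, 5 and 0 counts, or 1.34, 0.0250, 0.133 and 0 CPM. The groups overlapped, and the single library above 5 counts was preleukemic_633. The means differed by -0.35 CPM (leukaemic minus preleukaemic), and a two-sided exact permutation test gave p = 0.4 (adjusted p = 0.7 over 14 such tests), where the smallest p that 3 against 4 mice allow is 0.0571. Vangl2 did not pass the count filter of the model 2 fit.

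Vangl1, the close paralogue of Vangl2, was also highest in the leukaemic cells of model 1 but was present elsewhere too. The gene (ENSMUSG00000027860) is at chr3:102153583-102204693 on the minus strand. It was at 22.5, 84.7 and 89.4 CPM in leukemic_26, leukemic_28 and leukemic_39, and at 3.40, 0 and 4.97 CPM in TgSpi1FA-/- preleukemic_40, preleukemic_77 and preleukemic_224. TgSpi1FA+/+ preleukemic_138, preleukemic_445, preleukemic_451 and preleukemic_479 had 5.03, 37.9, 0 and 37.9 CPM. The leukaemic libraries stood above all TgSpi1FA-/- preleukaemic ones, whereas preleukemic_445 and preleukemic_479 of TgSpi1FA+/+ exceeded leukemic_26. The log2 fold change between leukaemic and preleukaemic TgSpi1FA-/- cells was 4.55 (SE 1.98) and did not pass the thresholds. Per kb of transcript, Vangl2 made up 17.3%, 14.5% and 22.5% of the summed Vangl1 and Vangl2 level in leukemic_26, leukemic_28 and leukemic_39, so Vangl1 was the larger in each.

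In model 2, Vangl1 varied widely within both stages, with 0.436, 15.9 and 4.17 CPM in leukemic_601, leukemic_606 and leukemic_921 and 26.2, 1.92, 11.2 and 4.85 CPM in preleukemic_633, preleukemic_663, preleukemic_812 and preleukemic_837. The groups overlapped. The log2 fold change was -0.69 (SE 1.18, edgeR adjusted p = 0.776), and it was -2.26 without leukemic_606 and 0.19 without preleukemic_633.

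Of the 3 cadherins, Celsr2 followed the pattern of Vangl2. Celsr2 (ENSMUSG00000068740, chr3:108390851-108415552, minus strand) had 68, 910 and 1673 counts in leukemic_26, leukemic_28 and leukemic_39, or 1.86, 23.3 and 42.4 CPM. TgSpi1FA-/- preleukemic_40, preleukemic_77 and preleukemic_224 had 0, 0 and 0.263 CPM, and the 4 TgSpi1FA+/+ preleukaemic libraries had between 0.0952 and 0.288 CPM. The lowest leukaemic library thus stood above the highest preleukaemic one, and leukemic_26, leukemic_28 and leukemic_39 fell in the same order for Celsr2 as for Vangl2. The log2 fold change against TgSpi1FA-/- preleukaemic cells was 7.91 (SE 1.67). This value rests on preleukemic_224, since the other 2 of the 3 preleukaemic libraries were at 0. It was 12.6 without preleukemic_224 and 7.08 without leukemic_39.

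In model 2, Celsr2 was at 0.770, 6.27 and 0.937 CPM in leukemic_601, leukemic_606 and leukemic_921 and at 1.56, 0.0250, 0.107 and 0.223 CPM in preleukemic_633, preleukemic_663, preleukemic_812 and preleukemic_837. Mouse preleukemic_633 exceeded leukemic_601 and leukemic_921, so the groups overlapped. The log2 fold change of 2.46 (SE 1.33, edgeR adjusted p = 0.338) was positive but not past the threshold, and it was 0.83 without leukemic_606 and 4.46 without preleukemic_633. The exact permutation test of the CPM, two-sided, gave p = 0.229 (adjusted p = 0.7).

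Celsr1 (ENSMUSG00000016028, chr15:85898929-86033777) behaved differently from mouse to mouse rather than from group to group. It was at 10.2, 4.22 and 26 CPM in leukemic_26, leukemic_28 and leukemic_39, at 33.0, 25.3 and 1.49 CPM in TgSpi1FA-/- preleukemic_40, preleukemic_77 and preleukemic_224, and at 44.2, 0.281, 1.38 and 0.222 CPM in TgSpi1FA+/+ preleukemic_138, preleukemic_445, preleukemic_451 and preleukemic_479. All 3 groups overlapped. Between TgSpi1FA-/- stages its log2 fold change was -0.56 (SE 1.81).

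Celsr1 in model 2 was again spread within the groups, at 9.65, 2.13 and 0.908 CPM in leukemic_601, leukemic_606 and leukemic_921 and at 1.92 to 11.9 CPM in the preleukaemic mice (log2 fold change -0.29, SE 0.93, edgeR adjusted p = 0.89). Celsr3 (ENSMUSG00000023473) was almost absent. It had 0, 12 and 29 counts in leukemic_26, leukemic_28 and leukemic_39 in the first table of model 1. No other library of that table or of model 2 had more than 5 counts. Since leukemic_26 had 0 counts, the leukaemic and preleukaemic groups overlapped there, and the gene did not pass the count filter. In the second table of model 1 it passed the filter. Its levels were 0.0150 to 0.143 CPM per kb in leukaemic and 0 to 0.0185 in TgSpi1FA+/+ preleukaemic libraries, again with overlap. The log2 fold change was 2.84 (SE 1.17, edgeR adjusted p = 0.251) and was not called.

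Prickle1 (ENSMUSG00000036158, chr15:93499114-93595891) split the leukaemic mice. Mice leukemic_28 and leukemic_39 had 15.0 and 14.5 CPM, whereas leukemic_26 had 1.10 CPM, the lowest of the model 1 libraries. TgSpi1FA-/- preleukemic_40, preleukemic_77 and preleukemic_224 had 2.52, 5.15 and 3.07 CPM, and the TgSpi1FA+/+ preleukaemic ones had 4.17 to 7.99 CPM. Between TgSpi1FA-/- stages the change was 1.51 on the log2 scale (SE 0.78) with all mice, and 2.05 without leukemic_26, where it passed the thresholds. In model 2 Prickle1 was at 1.08, 7.06 and 3.26 CPM in the leukaemic and at 0.479 to 7.15 CPM in the preleukaemic mice (log2 fold change -0.20, SE 0.92, edgeR adjusted p = 0.925).

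Prickle3 (ENSMUSG00000031145, X:7657260-7668186) stayed below 3 CPM in every library of model 2 and of the first table of model 1. Mice leukemic_26, leukemic_28 and leukemic_39 had 1.07, 0.639 and 0 CPM, and TgSpi1FA-/- preleukemic_40, preleukemic_77 and preleukemic_224 had 1.75, 2.23 and 1.32 CPM. These groups did not overlap, but the TgSpi1FA+/+ preleukaemic libraries, at 0.562 to 2.02 CPM, overlapped with the leukaemic ones. Between TgSpi1FA-/- stages the change was -1.63 on the log2 scale (SE 1.10) and did not pass the thresholds. In model 2 Prickle3 was at 1.63 to 1.82 CPM in the leukaemic and at 0.807 to 1.93 CPM in the preleukaemic mice (log2 fold change 0.46, SE 0.45, edgeR adjusted p = 0.607). The second table of model 1 held higher levels, at 0.0724 to 0.888 CPM per kb in leukaemic and 0.365 to 1.09 in TgSpi1FA+/+ preleukaemic libraries. These groups overlapped (log2 fold change -0.32, SE 0.81, edgeR adjusted p = 0.863).

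Prickle2 and Ror2 were at or near 0 where they could be read. In the second table of model 1, Prickle2 had 13 counts in preleukemic_138 and no more than 3 in each of the other 6 libraries. Ror2 had 2 counts in preleukemic_138 and 0 in the other 6.

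Daam1, the formin at the cytoplasmic end of the pathway, was the most abundant member and was lower in the leukaemic cells of model 1. Daam1 (ENSMUSG00000034574, chr12:71831078-71992333, plus strand) was at 111, 117 and 77.5 CPM in leukemic_26, leukemic_28 and leukemic_39 and at 309, 221 and 212 CPM in TgSpi1FA-/- preleukemic_40, preleukemic_77 and preleukemic_224. TgSpi1FA+/+ preleukemic_138, preleukemic_445, preleukemic_451 and preleukemic_479 had 181, 209, 246 and 202 CPM. All 3 leukaemic libraries lay below all 7 preleukaemic ones. The log2 fold change between TgSpi1FA-/- stages was -1.28 (SE 0.21), and it stayed between -1.37 and -1.09 with any 1 mouse left out.

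In model 2, Daam1 did not separate the stages, with 148, 134 and 195 CPM in leukemic_601, leukemic_606 and leukemic_921 and 192, 153, 111 and 222 CPM in preleukemic_633, preleukemic_663, preleukemic_812 and preleukemic_837. The groups overlapped. Its log2 fold change was -0.09 (SE 0.27, edgeR adjusted p = 0.878).

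**Figure D2:**
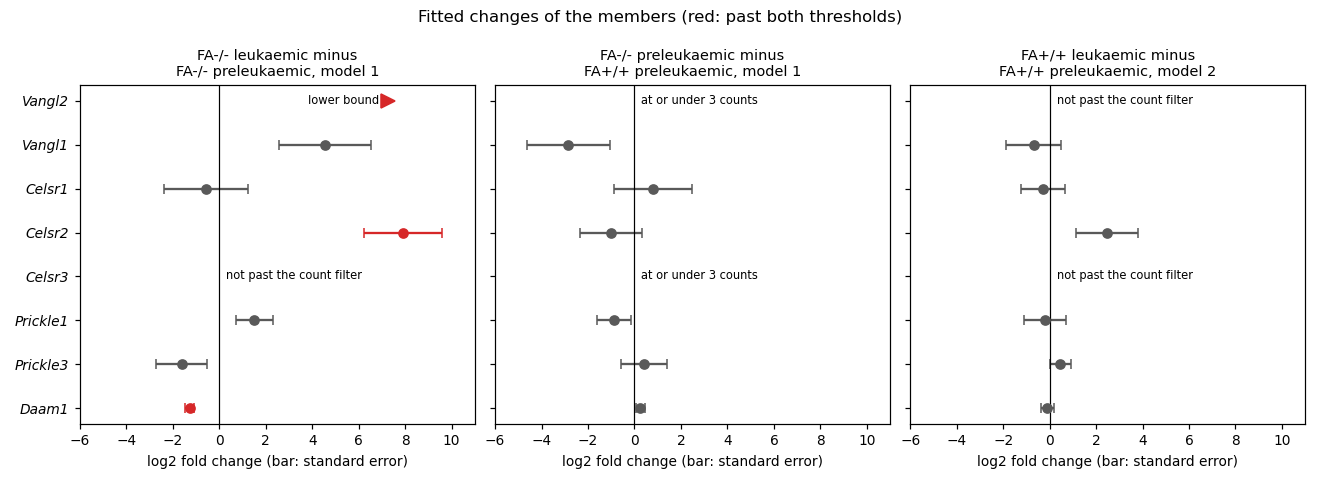
Points are fitted log2 fold changes of the members in 3 comparisons, with bars for standard errors, red for those past both thresholds, and a triangle for the Vangl2 lower bound. In the leukaemic minus preleukaemic comparison of TgSpi1FA-/- cells, Celsr2 was at 7.91 and Daam1 at -1.28, whereas no member passed in the other 2 comparisons.

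A gene was called where its edgeR adjusted p was below 0.05 and its level changed 1.5-fold or more. Between leukaemic and preleukaemic TgSpi1FA-/- cells, 3 of the 7 members past the count filter were called, Vangl2 and Celsr2 higher and Daam1 lower, beside 13.3% of all 13393 genes tested (6.82% higher and 6.49% lower). Since the members were chosen with this contrast known, nothing is read from that count. Groups did not overlap for 5 of the 7 (Vangl1, Vangl2 and Celsr2 higher, Prickle3 and Daam1 lower), beside 38.7% of all genes tested (19.4% higher and 19.3% lower). The Vangl2 call was lost without preleukemic_224 or leukemic_28 (edgeR adjusted p = 0.0503 and 0.0655). The Celsr2 call was lost without preleukemic_77, preleukemic_40, leukemic_28 or leukemic_39 (edgeR adjusted p = 0.0529, 0.0543, 0.0595 and 0.0501), and the Daam1 call was kept with each mouse left out.

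The comparison of TgSpi1FA-/- with TgSpi1FA+/+ preleukaemic cells asks whether the Fanca deletion alone went with a change in these genes. None of the 7 members was called, where 0.00747% of all genes tested (1 gene) were called and 8.65% had an unadjusted p under 0.05. Fanca itself was not called here, at a log2 fold change of -5.26 (SE 0.65, edgeR adjusted p = 0.0759). A missing call in this comparison therefore does not show that a gene was unchanged. No member's groups were separate, where 8.53% of all genes tested were. Vangl2 was at 0 in both groups. The lowest adjusted p belonged to Vangl1, with a log2 fold change of -2.85 (SE 1.79, edgeR adjusted p = 0.689). Its mean was 2.79 CPM in TgSpi1FA-/- and 20.2 CPM in TgSpi1FA+/+ cells, and the higher mean came from preleukemic_445 and preleukemic_479. Without both of these, the Vangl1 log2 fold change was 0.15. The two-sided exact permutation test gave p = 0.286 for Vangl1 and p = 0.114 for Prickle1, the lowest of the 6 members tested this way in this comparison (adjusted p = 0.7 for both). Without preleukemic_445 and preleukemic_479 the same exact test gave p = 1 and p = 0.4, where 3 against 2 mice allow no p below 0.2.

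Against TgSpi1FA+/+ preleukaemic cells, the leukaemic TgSpi1FA-/- cells share their libraries with the first comparison and differ in both genotype and stage. The same 3 members were called, Vangl2 with a bound of at least 158-fold (162-fold without preleukemic_445 and preleukemic_479), Celsr2 with a log2 fold change of 6.89 (SE 1.39) and Daam1 with -1.04 (SE 0.20), beside 7.01% of all genes tested (3.55% higher and 3.46% lower). Without preleukemic_445 and preleukemic_479, 0 of the members were called by edgeR, and 16 genes in all were. The log2 fold changes were then 6.78 for Celsr2 and -1.07 for Daam1 (edgeR adjusted p = 0.188 and 0.145), and Vangl2 had an adjusted p of 0.124. With 1 mouse left out, the calls of all 3 were lost without preleukemic_445, preleukemic_479, leukemic_28 or leukemic_39, and those of Celsr2 and Daam1 also without preleukemic_451, with an edgeR adjusted p of 0.0509 to 0.0849.

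The second table of model 1, with 35497594 to 171572736 counts per library for 7 of the 10 mice, holds other counts for the same mice and gives a second reading of the members. Vangl2 was there at 3.06, 14.5 and 13.7 CPM (541, 2099 and 502 counts) in leukemic_26, leukemic_28 and leukemic_39, and the 4 TgSpi1FA+/+ preleukaemic libraries had no more than 2 counts each. Celsr2 was at 4.53, 30.5 and 18.7 CPM in the leukaemic and at 0.137 to 0.558 CPM in the preleukaemic libraries. Neither gene's groups overlapped. Both were called (log2 fold change 5.82, SE 0.82, for Celsr2), beside 1.59% of the 16799 genes tested in that table.

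Daam1 in the second table was at 97.9, 89.4 and 99.5 CPM in the leukaemic and at 144 to 208 CPM in the preleukaemic mice, again without overlap, with a log2 fold change of -0.87 (SE 0.19) that was not called (edgeR adjusted p = 0.0661). Vangl1 in the libraries labelled preleukemic_445 and preleukemic_479 differed between the tables. In the first table both were at 37.9 CPM, whereas in the second preleukemic_445 was at 63.0 CPM and preleukemic_479 at 12.0 CPM.

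**Figure D3:**
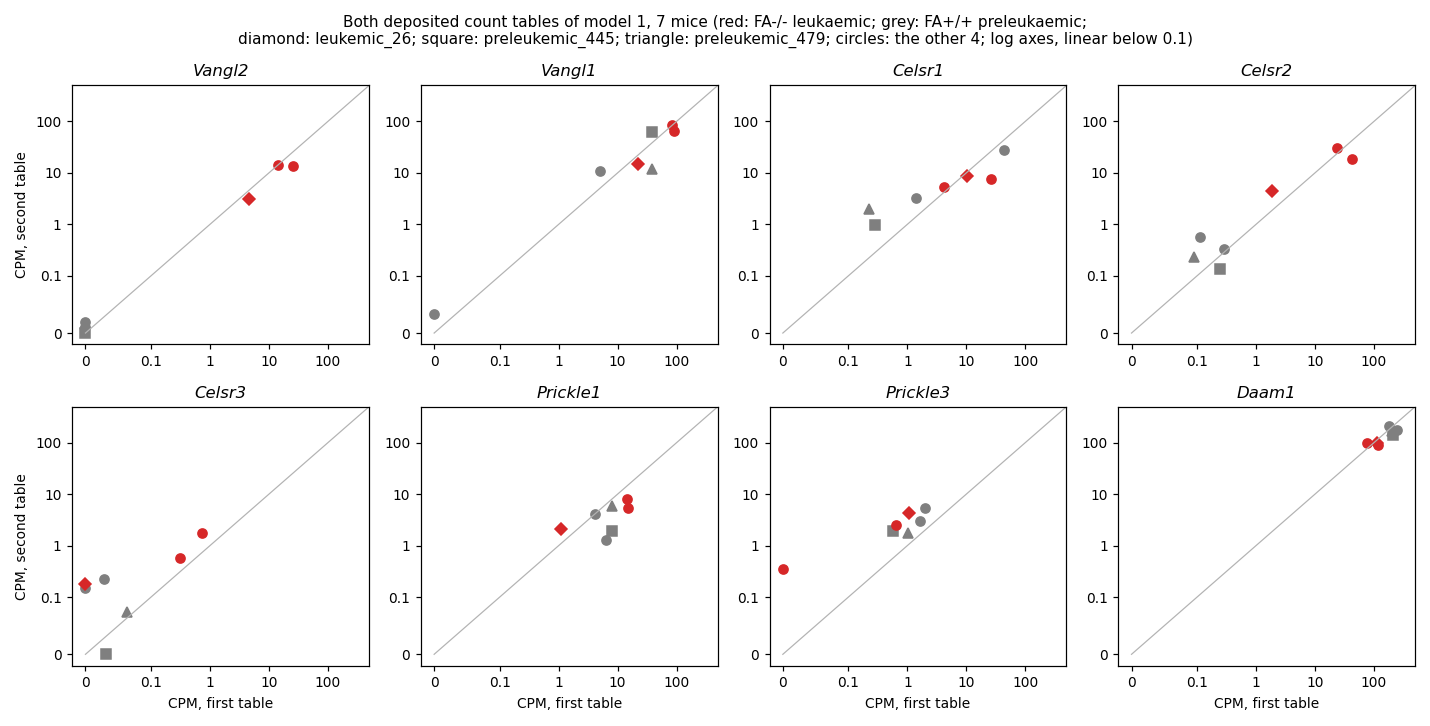
Each panel plots 1 gene in 7 mice of model 1, with CPM in the first table on the x axis and in the second on the y axis (log axes, linear below 0.1 CPM) and a grey line of equality. For Vangl2 and Celsr2 the 3 leukaemic mice (red) stand apart from the 4 preleukaemic ones (grey) in both tables, with Celsr2 at 4.53 CPM or more against 0.558 CPM or less in the second.

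Between the leukaemic and preleukaemic TgSpi1FA+/+ mice of model 2, none of the 6 members past the count filter was called by edgeR, where 0% of all 12970 genes tested were called and 19.9% had an unadjusted p under 0.05, none of them a member. No member had groups that did not overlap, where 20.1% of all genes tested did. The difference between the leukaemic change of model 1 and that of model 2, fitted over all 17 libraries, passed the thresholds for Vangl2 alone of 7 members, beside 4.61% of the 14597 genes tested (2.76% with a larger change in model 1). That call was lost without any 1 of preleukemic_77, preleukemic_224, preleukemic_40, leukemic_28, leukemic_39, leukemic_601, leukemic_606 and leukemic_921 (edgeR adjusted p = 0.0627 to 0.0843). For Celsr2 the difference of the 2 log2 fold changes was 5.39 (SE 2.13) and for Daam1 it was -1.20 (SE 0.33), and neither was called.

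Per kb of transcript, Daam1 was the highest member in all 5 groups, at 12.6 ± 2.63 CPM per kb (SD, n = 3) in the leukaemic cells of model 1 and 30.5 ± 6.57 in TgSpi1FA-/- preleukaemic cells. In the leukaemic cells Vangl1 followed at 9.15 ± 5.22 CPM per kb, then Prickle1 (2.35 ± 1.82), Vangl2 (2.10 ± 1.48), Celsr2 (1.96 ± 1.76) and Celsr1 (1.22 ± 1.02), where the last 4 did not differ beyond their spread. In both preleukaemic groups of model 1, Vangl2, Celsr2 and Celsr3 held the last 3 places, all at or below 0.0162 CPM per kb on average.

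The other genes of the pathway were read from lists of WNT ligands, receptors, cytoplasmic adaptors, effectors and the Fat-Dachsous cadherin system, 47 genes of which 28 passed the count filter in model 1. None of the 6 ligands passed it. Between leukaemic and preleukaemic TgSpi1FA-/- cells, 3 rose and 2 fell (17.9%, beside 13.3% of all genes tested), and the median log2 fold change was 0.05 over the 28 and 0.00 over all genes. None of the 4 receptors was called. Among 12 adaptors, Ankrd6 (the relative of fly Diego, which binds Dishevelled and VANGL) rose by a log2 fold change of 4.32 (SE 0.72), from 0.453 to 1.44 CPM in the preleukaemic to 6.55, 25.4 and 31.9 CPM in leukemic_26, leukemic_28 and leukemic_39. The adaptor Scrib, a polarity scaffold that binds VANGL2, fell by 0.61 on the log2 scale (SE 0.17). Among 9 effectors, Fuz fell by 1.47 (SE 0.26) and Intu rose by 0.96 (SE 0.25), both needed for cilia. Lix1l, of the Fat-Dachsous list, rose by 2.18 (SE 0.55). The 5 calls became 1 without preleukemic_224 or leukemic_28, 2 without leukemic_39, 3 without preleukemic_77 or preleukemic_40, and 2 when only the compared groups were fitted.

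In TgSpi1FA-/- against TgSpi1FA+/+ preleukaemic cells 0 of the 28 were called, and 1 had an unadjusted p under 0.05. Of all genes tested, 0.00747% were called there and 8.65% had an unadjusted p under 0.05. In model 2, 0 of 26 were called by edgeR, and 4 had an unadjusted p under 0.05. Of all genes tested there, 0% were called and 19.9% had an unadjusted p under 0.05. The median log2 fold change was -0.13 over these 26, beside -0.03 over all genes. Ankrd6 was there at 0.128, 1.80 and 1.22 CPM in the leukaemic mice and at 0.816 to 13.5 CPM in the preleukaemic ones, the highest being preleukemic_633 (log2 fold change -1.97, SE 1.31, edgeR adjusted p = 0.438). Ankrd6 was the 1 list gene of 28 (3.57%) for which the leukaemic changes of both models differed past the thresholds, beside 4.61% of all genes tested.

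**Figure D4:**
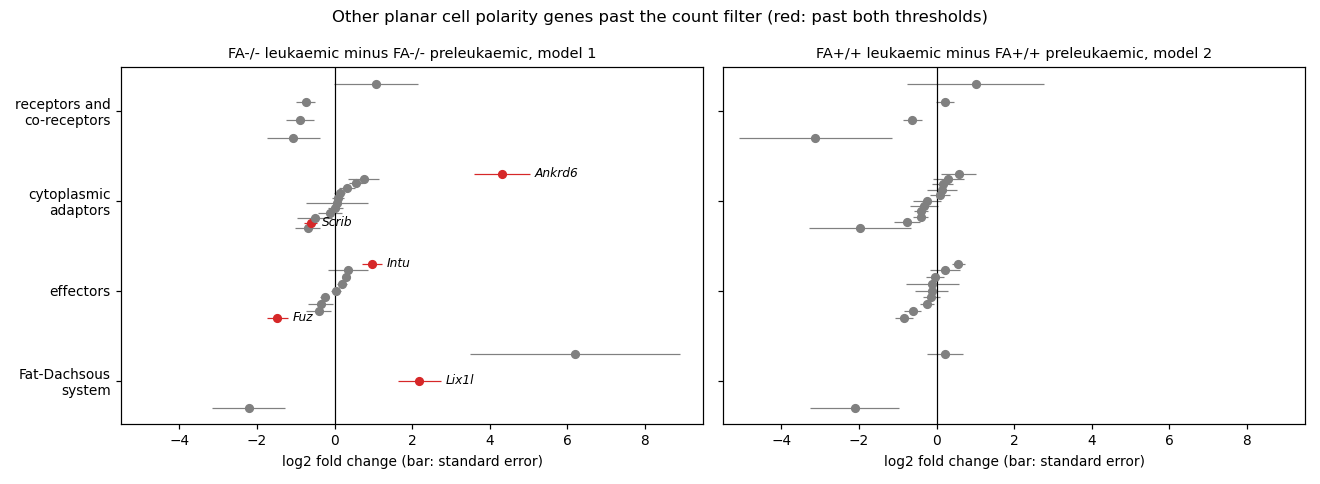
Points are log2 fold changes of the other pathway genes past the count filter, with bars for standard errors, by list (y axis) and in 2 comparisons. In model 1, Ankrd6 (4.32), Lix1l (2.18) and Intu (0.96) were called higher and Fuz (-1.47) and Scrib (-0.61) lower, and in model 2 none was called.

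The genes next to Vangl2 and Celsr2 did not share their change. Copa, the nearest tested gene by start site above Vangl2, had a log2 fold change of 0.19 (SE 0.21) between TgSpi1FA-/- stages, and Gm10521 below it had -2.27 (SE 1.49). Psrc1, which starts 31.7 kb from the start of Celsr2, had -0.16 (SE 0.28), and Sars on its other side had -0.31 (SE 0.20). Over 5 Mb to each side, the median was 0.19 for 74 genes around Vangl2 and 0.18 for 77 genes around Celsr2, beside 0.00 over all genes tested. Around Celsr2, 12 of the 77 genes were called higher and 3 lower, beside 6.82% and 6.49% of all genes tested. Around Vangl2 the medians of leukemic_26, leukemic_28 and leukemic_39 were 0.52, 0.47 and 0.00.

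Around Vangl1, genes were mostly higher between TgSpi1FA-/- stages. Of 76 tested genes within 5 Mb, 59 had a positive log2 fold change, 19 were called higher and 4 lower, and the median was 0.80. It was 1.31 over the 28 genes within 2 Mb. Of the nearest genes, Slc22a15 had 1.90 (SE 2.06), not called, and Sycp1 was called lower, with 283 CPM in preleukemic_224 and no more than 0.985 CPM in any other library. The medians around Vangl1 were 0.32, 0.86 and 1.18 in leukemic_26, leukemic_28 and leukemic_39, the order of the Vangl1 levels themselves. Nras, which starts 0.854 Mb from Vangl1, was at 274, 928 and 1077 CPM in these mice. In TgSpi1FA-/- preleukaemic cells Nras was at 189 ± 44.3 CPM (SD, n = 3). The paper reports an Nras mutation in leukemic_28 and leukemic_39 and a Kit mutation in leukemic_26. The part of these mutations in the levels was not tested. In model 2 the medians were 0.71, 1.03 and 0.0036 in leukemic_601, leukemic_606 and leukemic_921, which was not the order of their Vangl1 levels (0.436, 15.9 and 4.17 CPM). Over the 75 genes tested there the median log2 fold change was 0.56, whereas Vangl1 itself was at -0.69. This shift was not particular to Vangl1. Celsr2 starts 6.211 Mb from Vangl1, so their 5 Mb windows overlap. The median around Celsr2 in model 2 was 0.47 over 73 genes. In leukemic_601, leukemic_606 and leukemic_921 the medians around Celsr2 were 0.71, 1.03 and 0.066. The part of this stretch of the chromosome in the Vangl1 and Celsr2 levels was not tested.

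**Figure D5:**
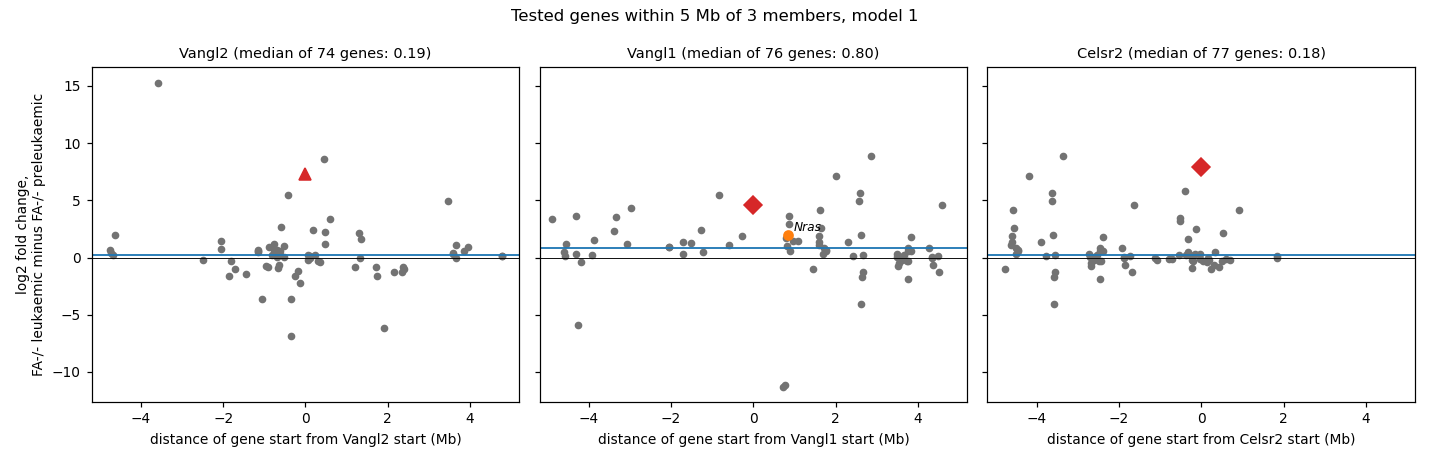
Each grey point is a tested gene within 5 Mb of Vangl2, Vangl1 or Celsr2, at the distance of its start (x axis, Mb) and its log2 fold change between leukaemic and preleukaemic TgSpi1FA-/- cells (y axis), with the member in red (a triangle for the Vangl2 bound), the median in blue, and in orange Nras. The blue line lies at 0.80 for Vangl1, and at 0.19 and 0.18 for Vangl2 and Celsr2. The most extreme points are fitted values of genes at or near 0 in a group.

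By Pearson's r of log2 CPM (prior count 2) over the 10 libraries of model 1, genes most like Vangl2 among 11123 included Mcf2l (0.9996), Cep126 (0.9992), Rassf2 (0.998) and Maged2 (0.996). Each had at most 1 count in any of the 7 preleukaemic libraries, so r here describes 3 leukaemic mice against 7 at or near 0. Without preleukemic_445 and preleukemic_479, r was 0.995 or more for these 4. Cep126 had 135, 365 and 980 counts in leukemic_26, leukemic_28 and leukemic_39, the order of the Vangl2 levels. The genes most like Celsr2 were Rprd1a (0.989), Spib (0.975), Brd3os (0.974), Sdc3 (0.973) and Rprd2 (0.971). Without preleukemic_445 and preleukemic_479, Rprd1a (0.991) was still the most like Celsr2, whereas Brd3os, Sdc3 and Rprd2 ranked at places 6, 13 and 15. Of these, Sdc3 had at most 3 and Spib at most 8 counts in any preleukaemic library of model 1, whereas Rprd2 had 2331 to 3266 counts there and 5652, 10296 and 11007 in leukemic_26, leukemic_28 and leukemic_39.

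Markers of some other cell types were also higher in the leukaemic than in the TgSpi1FA-/- preleukaemic libraries of model 1. Some of these markers were present in TgSpi1FA+/+ preleukaemic libraries too. Epithelial markers (5 of 6 with a row) summed to 3.73 to 12.5 CPM in the leukaemic and 0 to 0.162 CPM in the TgSpi1FA-/- preleukaemic libraries of model 1, mostly from Epcam (3.32 to 3.91 CPM) and Krt18 (0.329 to 8.35 CPM), whereas Cdh1 had 0, 0 and 0.0254 CPM. T cell markers (3 of 6 with a row) summed to 14.5 to 20.5 against 0 to 0.492 CPM, nearly all from Trbc1, whereas Cd3e was at 0 to 0.0274 CPM. Stromal and endothelial markers (6 of 8 with a row) summed to 9.70 to 36.0 against 10.5 to 274 CPM. Of these, 2 passed the count filter and went in opposite directions between TgSpi1FA-/- stages (log2 fold changes of 5.61 and -5.64). Kdr was at 7.32, 26.7 and 34.6 CPM in leukemic_26, leukemic_28 and leukemic_39, against 0.323 to 0.643 CPM, and Cdh5 was at 0.178 to 0.521 CPM. B cell markers (3 of 5 with a row, 0 past the count filter) summed to 0.228 to 0.521 against 0 to 0.0328 CPM. Myeloid (5 of 8) and neural markers (4 of 6 with a row) overlapped between these groups. Their sums were 2.43 to 3.81 against 1.97 to 3.78 CPM and 4.19 to 9.87 against 0.906 to 8.11 CPM. In TgSpi1FA+/+ preleukemic_138 the epithelial markers summed to 5.08 CPM, above the 3.73 CPM of leukemic_26, and the T cell markers to 7.44 CPM. The T cell markers were at 4.18 and 4.73 CPM in preleukemic_445 and preleukemic_479. The part of these cell types in the Vangl2 and Celsr2 levels was not tested.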

How the data were processed

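RNA-seq of 17 libraries (1 per mouse) was analysed. The authors deposited raw counts per Ensembl gene, checked to be whole numbers, with library totals that differ and no normalization. Per the labels, reads were made with bcl2fastq 2.17.1.14, aligned with STAR 2.5.3a to GRCm38 (mm10) and counted with HTSeq 0.6.1p1 from stranded poly-A libraries, but the settings were not given in the sources used here. A deposited copy of the model 2 table was not used. Rows for 99.804% of model 1 identifiers were found in GENCODE M21, from which positions and lengths were taken.

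Counts were filtered with filterByExpr, scaled by TMM and fitted with the quasi-likelihood test of edgeR 4.0.16 (R 4.3.3), with 3 groups in model 1, 2 in model 2, and all 5 groups over shared genes for the difference between models. Benjamini-Hochberg adjustment ran over all genes tested. Genes were called where the adjusted p was below 0.05 and the level changed 1.5-fold or more. Fold bounds use 3 counts per library and cover counting error only. CPM of single members were compared with exact two-sided permutation tests (scipy 1.17.1). Nearby genes were those starting within 5 Mb of a member. The edgeR fits between leukaemic and preleukaemic cells of each model, and between models, were tested on simulated counts.

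Named were all members, pathway genes called in a comparison (up to 6 each by fold change), 5 genes most like Vangl2 and Celsr2 (1 of these is not reported here), the nearest tested genes of Vangl2, Vangl1 and Celsr2, and Fanca, Spi1 and Nras. Nras and the single markers were named after their values were seen. The members and lists were chosen with earlier results of these data known. Alternatives were DESeq2 1.42.0 size factors and Wald test, no filter, 1 CPM in 3 libraries, only the compared groups, the second table, 2 Mb, and each mouse left out.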

Additional observations from a re-analysis of the deposited data

Results flagged for a closer look

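In groups of 4 mice, a single library stood far from the other 3 for 3 members (4 of 14 groups, by a gap above 0.829 of the range). That cutoff assumes normally distributed values, and the same mice recur among the 14 groups, so the count cannot be set against chance. Celsr1 was at 44.2 CPM in TgSpi1FA+/+ preleukemic_138 of model 1, and the other 3 of that group were at 0.222 to 1.38 CPM. Celsr1 was at 11.9 CPM in preleukemic_663 of model 2, beside 1.92 to 3.47 CPM in the rest. Mouse preleukemic_633 of model 2 held the highest Vangl2 level (1.34 CPM, with at most 0.133 CPM in the others) and the highest Celsr2 level of its group (1.56 CPM, with at most 0.223 CPM in the others).

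The leukaemic change of Vangl2 differed between model 1 and model 2 in the edgeR test of that difference (adjusted p = 0.0365), with Vangl2 higher in 3 of 3 leukaemic mice of model 1. Since Vangl2 was chosen for this pattern, the value is a description.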

How the results depend on the processing

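No paired analysis was possible because no mouse number occurs in more than 1 group. DESeq2 size factors and the absence of a low-count filter left every call and direction of the members where it was. The number of members for which the models differed was 2 with a filter of 1 CPM in 3 libraries and 3 with the DESeq2 Wald test, instead of 1. When only the 2 groups compared were fitted, 2 pathway list genes were called between TgSpi1FA-/- stages instead of 5, and Celsr2 was no longer called. With preleukemic_445 and preleukemic_479 left out, an alternative chosen after seeing the data, 0 members were called between leukaemic TgSpi1FA-/- and TgSpi1FA+/+ preleukaemic cells, and the log2 fold change of Celsr1 turned to -0.77. Between the preleukaemic genotypes, those of Vangl1, Celsr1 and Prickle3 turned to 0.15, -0.20 and -0.054. In the second table Celsr1 turned to -0.21. Within 2 Mb, the medians of nearby genes between TgSpi1FA-/- stages were 1.31 around Vangl1, 0.10 around Celsr1, -0.31 around Prickle1, -0.023 around Celsr2 and 0.046 around Daam1, and in model 2 they were -0.49 around Celsr1 and -0.055 around Daam1. The cause of these shifts was not tested.

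With 1 mouse left out, the members called ranged from 1 to 5 between TgSpi1FA-/- stages (1 without leukemic_28, 5 without leukemic_26), from 0 to 4 against TgSpi1FA+/+ preleukaemic cells, and from 0 to 2 for the difference between models. Pathway list genes called between TgSpi1FA-/- stages ranged from 1 to 7, and all counts for model 2 and for the preleukaemic genotypes stayed at 0. Log2 fold changes that changed sign were those of Celsr1 between TgSpi1FA-/- stages (-1.44 to 0.00036), against TgSpi1FA+/+ preleukaemic cells (-0.66 to 4.42), in model 2 (-1.75 to 0.54) and between models (-1.15 to 1.18), and in model 2 those of Daam1 (-0.25 to 0.068), Prickle1 (-1.01 to 0.25) and Vangl1 (-2.26 to 0.19). Levels under about 3 counts per library cannot be told from 0 at this depth.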
